A study of Mus musculus with 12 samples.

Results

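T cell, natural killer (NK) cell and cytotoxic genes were followed through 12 bulk RNA-seq libraries of mouse colitis. The 37 genes were taken by symbol from a count table of 54109 gene identifiers, and all 37 were found. They fall into 8 subsets: 8 chains of the T cell receptor complex, 3 co-receptors, 4 proximal signalling genes, 6 surface and costimulatory genes, 3 transcription factors, 5 cytotoxic effectors, 4 NK receptors and 4 genes of tissue residence and cytokine response.

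The libraries form 4 groups of 3: whole colon of wild-type (WT) mice, whole colon of Gpr15l-/- mice (labelled KO), lamina propria mononuclear cells (LPMCs, the cells released from the gut wall) of WT mice, and LPMCs of KO mice. All mice carried acute colitis induced with dextran sulfate sodium (DSS), a sulfated polysaccharide given to damage the colonic epithelium, so no group here is free of colitis. The genotype comparison asks what loss of Gpr15l, the gene of a ligand for the lymphocyte receptor GPR15, goes with in each material. The sources used here do not give strain, sex, age, DSS dose or day of sampling, nor whether each library came from a separate animal, so p-values measure only the spread between these libraries.

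A T cell recognises antigen through a receptor made of an alpha and a beta chain, or a gamma and a delta chain, held at the surface by the CD3 chains and the zeta chain. The kinase Lck phosphorylates the CD3 and zeta tails, Zap70 docks there, and Lat assembles the downstream signalling complex. Cytotoxic T cells and NK cells kill by releasing granzymes through perforin pores or by Fas ligand. In the intestine such cells lie both within the epithelium, many of them CD8 or gamma delta T cells, and in the lamina propria, where CD4 cells are common. In bulk tissue, fewer cells of a type and less RNA per cell cannot be told apart.

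Total counts per library ran from 45372585 to 140682087. The targeted gene, annotated as 2610528A11Rik, had 15639 to 80362 counts in the WT colon libraries and 14 to 20 in the KO ones, against 18619 to 32405 and 4 to 10 in LPMC, so the genotype labels held in all 12. On the first principal component, with 57.8% of the variance, the tissues separated. On the second, with 10.2%, colon KO replicate 2, LPMC WT replicate 3 and LPMC KO replicate 2 stood apart from the other libraries of their groups. Colon WT replicate 1 stood apart in B cell RNA: 8 B cell markers summed to 970 CPM there (CPM are counts scaled to an equal library total) and to 2.50 to 22.6 CPM in the other colon libraries. The LPMC label was checked against markers of other cells. Nerve and glia markers summed to 2.97 to 6.13 CPM in LPMC against 21.8 to 59.9 CPM in colon, and 8 epithelial markers still summed to 8511 to 12060 CPM against 14230 to 28000 CPM, so LPMC libraries held much epithelial RNA. Fibroblast markers summed to 830 to 5089 CPM in LPMC against 213.9 to 999.6 CPM in colon, and endothelial markers to 121 to 321 CPM against 23.9 to 74.7 CPM. Smooth muscle markers overlapped, at 136 to 1182 CPM in LPMC and 225 to 1952 CPM in colon. All LPMC values below are of such mixed material.

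All 37 members were higher in LPMC than in colon. The median log2 fold change over the members was 3.20, from 0.99 for Bcl11b to 4.97 for Cd28, while the median over all genes tested was 0.01. The test was edgeR's quasi-likelihood test over the whole table with Benjamini-Hochberg adjustment, and a gene counts as called at an adjusted p under 0.05. Of the 20989 genes tested, 25.4% were called higher. The highest adjusted p among the members was 0.0131, for Ccl5, with the same edgeR test. In 31 members every LPMC library lay above every colon library, which was so for 14.5% of all genes tested. Ptprc, the gene of the pan-leukocyte protein CD45, was read beside the members. It stood at 124, 20.5 and 8.68 CPM in colon WT and 26.5, 4.11 and 24.2 CPM in colon KO and at 182, 118 and 128 CPM in LPMC WT and 277, 76.5 and 297 CPM in LPMC KO, in replicate order. Only colon WT replicate 1 reached the LPMC range. With the 4 libraries named above left out together, a choice made after the data were seen, 36 members were called and Ccl5 was not.

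**Figure D1:**
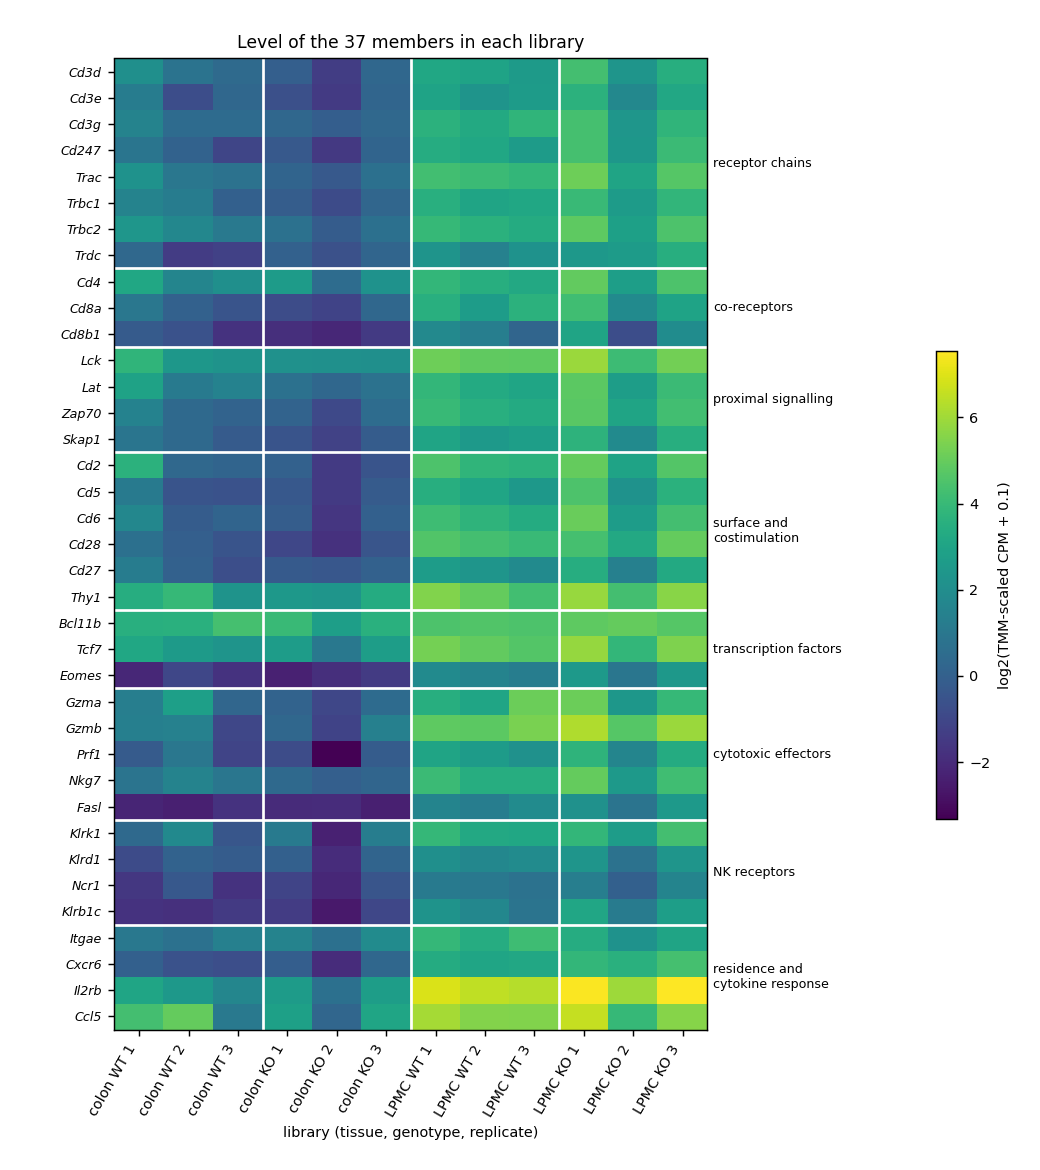
Level of each of the 37 members in each of the 12 libraries as log2 of TMM-scaled CPM, grouped by subset in rows and by tissue and genotype in columns. The LPMC libraries are the brighter ones in every subset, and colon KO replicate 2 and LPMC KO replicate 2 hold the lowest value of their tissue for 31 and 32 of the 37 members.

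**Figure D2:**
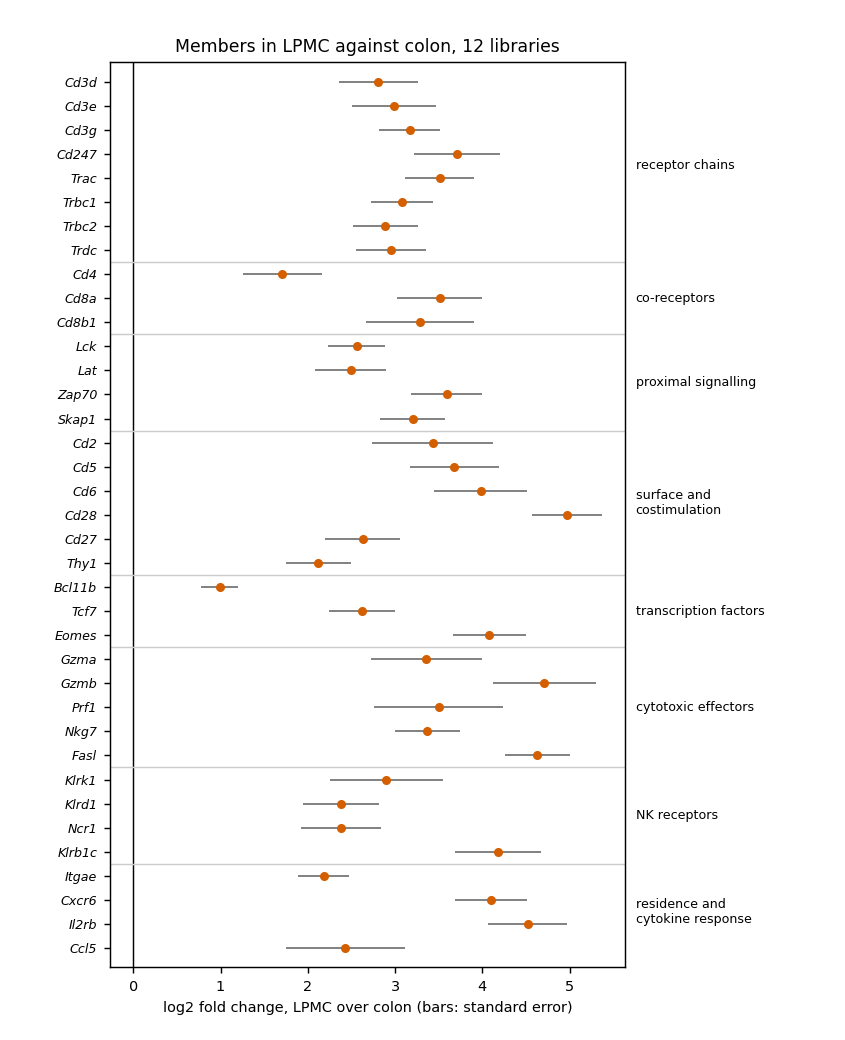
log2 fold change of each member in LPMC over colon on the horizontal axis, from the fit over 12 libraries, with bars of 1 standard error; members are in rows by subset. Every point lies to the right of 0, from Bcl11b at 0.99 to Cd28 at 4.97.

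Levels between genes were compared as CPM per kilobase of annotated exon. On that scale Ccl5 had the highest mean in each of the 4 groups, at 18.2 CPM per kb in colon WT, 5.76 in colon KO, 55.1 in LPMC WT and 55.45 in LPMC KO. In colon WT the next were Trbc2 at 4.94, Gzma at 3.46 and Thy1 at 3.45 CPM per kb. In colon KO they were Thy1 at 2.28, Trbc2 at 1.87 and Tcf7 at 1.86 CPM per kb, and Gzma stood at 0.884. In LPMC WT they were Il2rb at 22.8, Gzmb at 22.5, Trbc2 at 18.11 and Trac at 18.10 CPM per kb, and in LPMC KO Gzmb at 37.5, Il2rb at 33.1, Trbc2 at 28.2 and Trac at 24.6. Neighbours in these orders were not tested against each other. Eomes had the lowest mean in each group, at 0.0584 and 0.0437 CPM per kb in colon WT and KO and 0.707 and 1.03 in LPMC. Counts of single members ran from 0 to 1759 in colon and from 40 to 24292 in LPMC, so the colon values rest on far fewer reads.

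The 3 CD3 genes lie together on chromosome 9 (GRCm38), where Cd3g and Cd3d start 1354 bases apart and point away from each other, and they were all higher in LPMC. Their promoters are shown with those of Gzmb and Prf1, which encode granzyme B and perforin, as the receptor complex and the killing machinery of these cells. Each window is the 250 bases before the start site in RefSeq (GRCm38.p6), printed 5′ to 3′ on the gene's strand, with matches to 4 short motifs on either strand in capitals. The motifs were TGTGGT (Runx), CAGGAA (Ets), CTTTGA (Tcf7) and GGTGTGA (T-box), and no match of one overlaps another in these windows. For Gzmb and Prf1, a short stretch of bases after the RefSeq start was found in no GENCODE M21 transcript. Start positions were not compared by this search. The Prf1 window ends at base 61297835, and the GENCODE M21 gene starts at base 61297833.
Cd3g, chr9:44980432-44980681, minus strand: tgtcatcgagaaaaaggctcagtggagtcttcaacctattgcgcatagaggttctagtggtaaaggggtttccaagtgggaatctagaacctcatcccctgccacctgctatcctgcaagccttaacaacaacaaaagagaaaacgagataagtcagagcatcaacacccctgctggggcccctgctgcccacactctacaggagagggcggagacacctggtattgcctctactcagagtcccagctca
Cd3d, chr9:44981536-44981785, plus strand: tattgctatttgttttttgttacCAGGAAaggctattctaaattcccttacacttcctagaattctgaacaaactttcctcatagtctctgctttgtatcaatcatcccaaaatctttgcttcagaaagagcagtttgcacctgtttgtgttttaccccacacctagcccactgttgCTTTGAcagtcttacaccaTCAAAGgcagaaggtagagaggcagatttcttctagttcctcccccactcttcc
Cd3e, chr9:45009612-45009861, minus strand: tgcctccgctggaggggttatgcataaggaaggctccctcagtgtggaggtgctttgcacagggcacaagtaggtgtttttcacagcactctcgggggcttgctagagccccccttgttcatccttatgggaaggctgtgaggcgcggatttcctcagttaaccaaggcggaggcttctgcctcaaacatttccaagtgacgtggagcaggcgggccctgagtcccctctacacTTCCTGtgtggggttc
Gzmb, chr14:56262335-56262584, minus strand: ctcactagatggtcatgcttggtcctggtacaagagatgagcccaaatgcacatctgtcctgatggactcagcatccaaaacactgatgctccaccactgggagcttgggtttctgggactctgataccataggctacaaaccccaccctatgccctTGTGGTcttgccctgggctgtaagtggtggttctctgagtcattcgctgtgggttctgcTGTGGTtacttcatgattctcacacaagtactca
Prf1, chr10:61297586-61297835, plus strand: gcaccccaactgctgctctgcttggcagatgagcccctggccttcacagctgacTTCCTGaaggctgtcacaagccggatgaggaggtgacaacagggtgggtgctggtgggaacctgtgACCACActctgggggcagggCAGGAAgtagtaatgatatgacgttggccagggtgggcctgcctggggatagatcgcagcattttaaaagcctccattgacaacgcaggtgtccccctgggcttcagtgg
The Cd3d window holds 1 Ets and 2 Tcf7 matches, Cd3e 1 Ets match, Gzmb 2 Runx matches and Prf1 2 Ets and 1 Runx match, and Cd3g holds none. Of the 37 members, 22 had a promoter in the RefSeq table. The Runx motif was in 45.5% of those 22 genes against 15.9% of all 27025 genes with a window. The Ets motif was in 54.5% against 28.3%, the Tcf7 motif in 18.2% against 15.8% and the T-box motif in 4.5% against 3.8%. These shares describe letters in the windows and are no measure of binding.

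In the colon of KO mice, no member passed the test against WT. Of the 37 members, 32 had a log2 fold change below 0 and the median was -0.79, against a median of 0.01 over all 19303 genes tested, of which 49.5% were below 0. By that call 1 gene changed, 0.00518% of all genes tested, and it was lower. At an unadjusted p under 0.05, 9 members were lower and 0 higher, against 4.47% and 3.32% of all genes tested. In 8 members (Cd3d, Cd3g, Trac, Trbc2, Lck, Lat, Cd2 and Nkg7) every KO library lay below every WT library, as in 6.53% of all genes tested. Adjusted p-values of members ran from 0.632 to 0.992 with edgeR's quasi-likelihood test, and DESeq2 called 0 members and 0.0565% of all genes it tested.

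The size of this difference varied with the libraries used. Colon WT replicate 1 was the highest colon library for 22 members and colon KO replicate 2 the lowest for 31. The median log2 fold change was -0.40 without the first and -0.57 without the second, and -0.16 with all 4 libraries that stand apart left out, where 21 members were below 0. The number of members at an unadjusted p under 0.05 and below 0 was then 1. Leaving out only WT replicate 1 gave 2, only KO replicate 2 gave 1, only WT replicate 2 gave 5 and only KO replicate 1 gave 2. Without each colon library in turn the count ran from 1 to 13 and the median from -1.13 to -0.40, so some refits raised both in size. The shares of all genes in these refits are not given here.

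In the LPMCs of KO mice, no member passed the test either, and the members leaned the other way. Log2 fold changes were above 0 for 35 of 37, with a median of 0.44, while 49.2% of the 19426 genes tested were above 0 and their median was 0.00. By adjusted p, 0.0103% of all genes tested were called. At an unadjusted p under 0.05, 3 members were higher (Trdc, Bcl11b and Cxcr6), against 1.20% of all genes, and 1 was lower (Itgae), against 1.44%. The KO libraries lay above every WT library in those same 3 members, as in 3.66% of all genes tested. Adjusted p-values of members ran from 0.998 to 0.999 with edgeR's quasi-likelihood test, and DESeq2 called 0 members and 0.0897% of the genes it tested.

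The size of the LPMC difference varied with LPMC KO replicates 1 and 2. Replicate 2 was the lowest LPMC library for 32 members, and replicate 1 the highest for 27. Without LPMC KO replicate 2 the median was 0.85 and 26 members were higher at an unadjusted p under 0.05, with 0 called after adjustment. Without LPMC KO replicate 1 the median was 0.12. It was 0.72 without LPMC WT replicate 1. Without each of the 3 WT libraries in turn, 1 member was higher at that unadjusted p. With the 4 libraries that stand apart left out the median was 0.77 and the count 29. The shares of all genes past that cutoff in these refits are not given here. The counts of 26 and 29 are therefore not comparable with the 1.20% of the main fit.

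**Figure D3:**
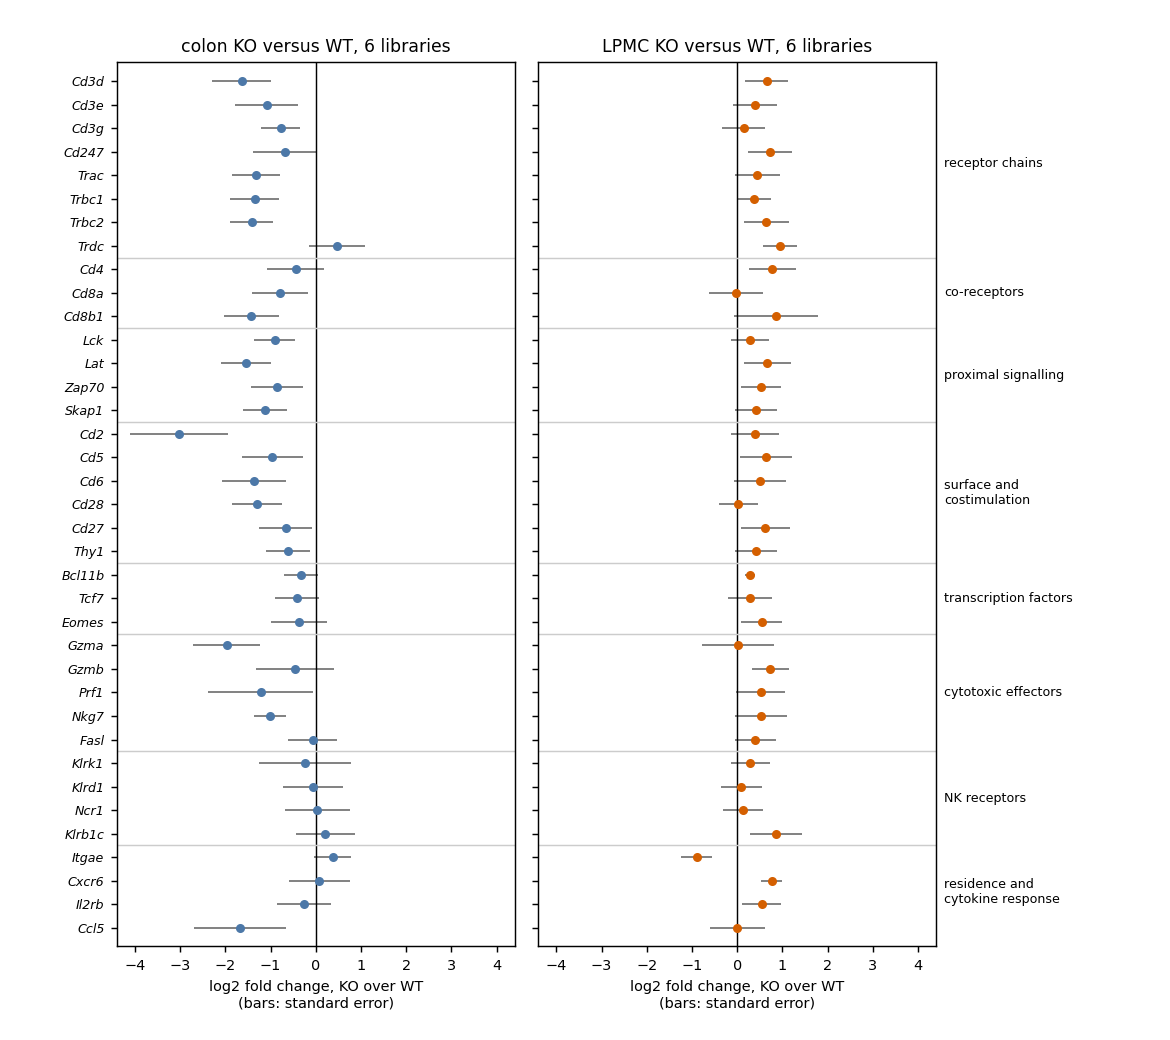
log2 fold change of each member in KO over WT, in colon and in LPMC, with bars of 1 standard error, by subset. Most colon points lie left of 0 (32 of 37) and most LPMC points right of 0 (35 of 37), and no member was called in either tissue.

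Whether the genotype difference itself differed between the tissues was tested as an interaction over all 12 libraries. No member was called, and 0% of the 20989 genes tested were. The interaction term (LPMC difference minus colon difference) was above 0 for 36 members, with a median of 1.27 against -0.01 over all genes, of which 48.8% were above 0. At an unadjusted p under 0.05, 8 members were above 0, against 2.69% of all genes, and Itgae was the 1 member below 0, at -1.29 (SE 0.55), against 2.01% of all genes. The count of 8 became 1 when either colon WT replicate 1 or LPMC KO replicate 1 was left out. Without LPMC KO replicate 2 it became 16. It was 3 when colon KO replicate 2 or LPMC WT replicate 2 was left out, and 4 for each of the replicates numbered 3 in LPMC. For these refits the share of all genes is not given here. Adjusted p-values of members ran from 0.902 to 0.996 with edgeR's quasi-likelihood test.

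The receptor chains had the lowest colon median of the 8 subsets, a log2 fold change of -1.20, and a median of 0.54 in LPMC. Values followed by a standard error (SE) from here on are log2 fold changes, KO over WT unless LPMC over colon is named, and per-library values are in replicate order. Trbc2, 1 of the beta-chain constant genes, stood at 5.08, 3.16 and 2.02 CPM in colon WT, 1.57, 0.783 and 1.53 CPM in colon KO, 15.3, 12.1 and 10.2 CPM in LPMC WT and 28.6, 7.05 and 22.8 CPM in LPMC KO. Its colon KO values all lay below the WT ones, with a log2 fold change of -1.42 (SE 0.47), and its interaction term was 2.03 (SE 0.70). Trbc1 and Trbc2 are near-identical, so reads may be split between them. Trbc1 had a colon log2 fold change of -1.35 (SE 0.54). Without the 4 libraries that stand apart the colon values were -0.75 for Trbc2 and -0.73 for Trbc1.

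Cd3d, the CD3 delta chain, stood at 4.17, 1.67 and 1.26 CPM in colon WT, 0.872, 0.294 and 1.12 CPM in colon KO, 8.85, 7.89 and 5.95 CPM in LPMC WT and 19.6, 4.91 and 11.1 CPM in LPMC KO. The colon groups did not overlap, with colon WT replicate 1 far above the other WT libraries, and the log2 fold change was -1.64 (SE 0.65), or -0.94 without that library and -0.56 without the 4. Trac, the alpha-chain constant gene, stood at 4.60, 1.86 and 1.63 CPM in colon WT, 1.04, 0.718 and 1.52 CPM in colon KO, 19.2, 16.9 and 14.6 CPM in LPMC WT and 35.1, 8.14 and 25.7 CPM in LPMC KO. Again the colon KO libraries were all lower than the WT ones, at -1.32 (SE 0.53), while the LPMC KO libraries lay on both sides of the WT ones. The colon value was -0.68 without colon WT replicate 1 and -0.45 without the 4. Cd3g, the CD3 gamma chain, stood at 2.79, 1.30 and 1.27 CPM in colon WT, 1.14, 0.849 and 1.19 CPM in colon KO, 12.4, 9.54 and 13.5 CPM in LPMC WT and 20.2, 5.15 and 13.9 CPM in LPMC KO. Its colon groups were apart by a narrow gap, at -0.78 (SE 0.43), or -0.29 without colon WT replicate 1, and it had the lowest p of its subset for LPMC over colon, at 3.17 (SE 0.35). Cd3e and Cd247, the epsilon and zeta chains, had overlapping genotype groups in both tissues.

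Trdc, the delta-chain constant gene of gamma delta T cells, had the 1 colon log2 fold change above 0 among the 8 chains. It stood at 1.17, 0.279 and 0.330 CPM in colon WT, 0.937, 0.538 and 1.06 CPM in colon KO, 4.77, 2.62 and 4.59 CPM in LPMC WT and 5.53, 6.21 and 11.2 CPM in LPMC KO. In colon only WT replicate 1 was as high as the KO libraries, and the log2 fold change was 0.47 (SE 0.63), or 1.46 without that library and 0.15 without colon WT replicate 2. In LPMC every KO library lay above every WT library, at 0.94 (SE 0.38), or 0.55 without LPMC KO replicate 3.

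Among the co-receptors, Cd4, which some myeloid cells also make, was the highest per kilobase and changed least with tissue. Cd4, which binds MHC class II on the partner cell, stood at 8.87, 3.02 and 4.13 CPM in colon WT, 6.05, 1.34 and 4.57 CPM in colon KO, 14.5, 11.03 and 9.29 CPM in LPMC WT and 30.02, 6.68 and 22.9 CPM in LPMC KO. Colon and LPMC overlapped, the LPMC over colon log2 fold change was 1.71 (SE 0.45), and that of LPMC KO over WT was 0.78 (SE 0.53), which became 0.37 without LPMC KO replicate 1 and 1.19 without LPMC KO replicate 2. Cd8a, the CD8 alpha chain, stood at 1.88, 0.929 and 0.602 CPM in colon WT, 0.474, 0.359 and 1.15 CPM in colon KO, 11.5, 6.32 and 12.5 CPM in LPMC WT and 18.4, 3.56 and 7.72 CPM in LPMC KO. LPMC exceeded colon in every library, with a log2 fold change of 3.51 (SE 0.49), and the genotypes overlapped in both tissues. Cd8b1, the CD8 beta chain that marks conventional CD8 T cells, stood at 0.773, 0.557 and 0.201 CPM in colon WT, 0.172, 0.131 and 0.261 CPM in colon KO, 3.33, 2.43 and 1.05 CPM in LPMC WT and 8.12, 0.486 and 3.80 CPM in LPMC KO. LPMC KO replicate 2 was as low as colon WT, and the log2 fold changes were -1.43 (SE 0.61) in colon and 2.27 (SE 1.17) for the interaction. They became -0.78 in colon without the 4 libraries and 1.32 for the interaction without LPMC KO replicate 1.

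Of the proximal signalling genes, Lck was the highest per kilobase, at 13.7, 5.30 and 4.76 CPM in colon WT, 4.37, 4.29 and 4.16 CPM in colon KO, 34.95, 29.3 and 29.02 CPM in LPMC WT and 59.9, 17.3 and 37.3 CPM in LPMC KO. The colon KO libraries were tightly spaced under the WT ones, at -0.91 (SE 0.45), and the value was -0.24 without colon WT replicate 1 and -0.25 without the 4. Lat, the adaptor that links the receptor to downstream signalling, stood at 7.65, 2.04 and 2.71 CPM in colon WT, 1.57, 1.13 and 1.63 CPM in colon KO, 14.6, 9.89 and 8.16 CPM in LPMC WT and 28.1, 6.54 and 17.1 CPM in LPMC KO. Its groups did not overlap in colon, at -1.54 (SE 0.55), did overlap in LPMC, at 0.66 (SE 0.52), and the interaction was 2.18 (SE 0.79). Without colon WT replicate 1 the colon value of Lat was -0.73 and the interaction 1.38, and without LPMC KO replicate 1 the LPMC value was 0.14. Zap70, the kinase that binds phosphorylated receptor tails, stood at 2.73, 1.23 and 0.989 CPM in colon WT, 1.01, 0.424 and 1.32 CPM in colon KO, 15.8, 11.4 and 9.93 CPM in LPMC WT and 26.7, 7.97 and 19.2 CPM in LPMC KO. It rose from colon to LPMC by a log2 fold change of 3.59 (SE 0.41) and its genotype groups overlapped in both tissues, as did those of Skap1.

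Among the surface and costimulatory genes, Cd2, an adhesion receptor of T and NK cells that mouse B cells also carry, had the largest colon difference of any member. It stood at 12.6, 1.16 and 1.03 CPM in colon WT, 0.948, 0.261 and 0.616 CPM in colon KO, 22.9, 13.7 and 12.6 CPM in LPMC WT and 31.7, 7.71 and 25.1 CPM in LPMC KO. The colon groups did not overlap, and the size varied with 1 library: the log2 fold change was -3.03 (SE 1.09) with all 6 libraries, -0.85 without colon WT replicate 1 and -0.50 without the 4 that stand apart. The interaction term was 3.40 (SE 1.30), and 1.22 without colon WT replicate 1. Colon WT replicate 1 is the library with 970 CPM of summed B cell markers, and the part of B cell RNA in the Cd2 value was not tested. Cd5 and Cd27 are also known from B cells.

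Cd28, the costimulatory receptor for CD80 and CD86, stood at 1.51, 0.883 and 0.602 CPM in colon WT, 0.398, 0.196 and 0.623 CPM in colon KO, 24.3, 19.6 and 16.3 CPM in LPMC WT and 20.4, 9.43 and 31.1 CPM in LPMC KO. It had the largest tissue difference of all members, 4.97 (SE 0.40), and its genotype groups overlapped in LPMC. Thy1, a surface glycoprotein of T cells that fibroblasts and neurons also make, was the highest of the subset per kilobase, at 10.9, 15.3 and 4.73 CPM in colon WT, 5.38, 4.99 and 10.1 CPM in colon KO, 44.6, 31.2 and 19.2 CPM in LPMC WT and 58.04, 19.7 and 48.7 CPM in LPMC KO. Its genotype groups overlapped in both tissues. Cd27, a costimulatory receptor of the TNF receptor family, had the lowest LPMC genotype p of the subset with a log2 fold change of 0.62 (SE 0.54), from values of 2.28, 0.929 and 0.516 CPM in colon WT, 0.754, 0.669 and 0.951 CPM in colon KO, 6.30, 5.04 and 3.55 CPM in LPMC WT and 10.7, 2.58 and 9.62 CPM in LPMC KO. It was 0.32 without LPMC KO replicate 1 and 1.03 without LPMC KO replicate 2. The LPMC KO libraries lay on both sides of the WT ones. The part of fibroblast RNA in the tissue difference of Thy1 was not tested.

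The 3 transcription factors had a median log2 fold change of -0.38 in colon and 0.29 in LPMC. Tcf7 (TCF1), kept in naive and memory T cells, was the highest per kilobase, at 8.68, 5.95 and 4.79 CPM in colon WT, 6.25, 1.94 and 6.45 CPM in colon KO, 38.6, 30.5 and 24.8 CPM in LPMC WT and 57.1, 14.4 and 43.2 CPM in LPMC KO. Its genotype groups overlapped in both tissues. Bcl11b, needed for T cell identity, stood at 11.5, 11.9 and 19.9 CPM in colon WT, 16.1, 6.69 and 11.8 CPM in colon KO, 22.5, 24.4 and 22.4 CPM in LPMC WT and 28.8, 31.2 and 25.1 CPM in LPMC KO. It differed from the other members in the narrow spread of its LPMC values: LPMC KO replicate 2, the lowest library for most members, was its highest. The log2 fold changes were 0.29 (SE 0.11) in LPMC, -0.33 (SE 0.38) in colon, 0.62 (SE 0.42) for the interaction and 0.99 (SE 0.21) for LPMC over colon. The colon value ran from -0.63 without colon KO replicate 1 to -0.01 without colon WT replicate 3. Eomes, a T-box factor of NK and memory CD8 T cells, stood at 0.133, 0.395 and 0.201 CPM in colon WT, 0.0969, 0.179 and 0.268 CPM in colon KO, 3.62, 2.84 and 2.34 CPM in LPMC WT and 5.65, 1.80 and 5.41 CPM in LPMC KO. Its tissue difference was 4.08 (SE 0.42), and its colon values rest on few reads.

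Of the cytotoxic effectors, Gzmb was the highest per kilobase, at 2.50, 2.65 and 0.401 CPM in colon WT, 1.12, 0.359 and 2.59 CPM in colon KO, 28.4, 28.2 and 40.4 CPM in LPMC WT and 76.8, 25.4 and 59.2 CPM in LPMC KO. It rose from colon to LPMC by a log2 fold change of 4.71 (SE 0.59) and had a log2 fold change of 0.73 (SE 0.41) between LPMC genotypes, where KO replicate 2 lay below all WT libraries. That value was 0.40 without LPMC KO replicate 1. Gzmb is also known from mast cells and plasmacytoid dendritic cells, and their part in its values was not tested. Nkg7, a granule membrane protein of T and NK cells, stood at 1.74, 2.79 and 1.83 CPM in colon WT, 1.23, 0.881 and 1.07 CPM in colon KO, 16.9, 10.9 and 10.8 CPM in LPMC WT and 31.2, 5.67 and 18.7 CPM in LPMC KO. All colon KO values lay below the WT values, at -1.01 (SE 0.35), and the value was -0.76 without colon WT replicate 2, the highest colon library for this gene. Its interaction term was 1.52 (SE 0.68), or 0.91 without LPMC KO replicate 1. Fasl, the ligand of the death receptor Fas, stood at 0.121, 0.0929 and 0.201 CPM in colon WT, 0.151, 0.163 and 0.0937 CPM in colon KO, 2.92, 2.33 and 3.67 CPM in LPMC WT and 4.45, 1.74 and 5.58 CPM in LPMC KO. It had the lowest adjusted p of all members for LPMC over colon, 5.93e-06 with edgeR's quasi-likelihood test, at 4.63 (SE 0.37).

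Gzma, granzyme A, had a colon log2 fold change of -1.97 (SE 0.74). It stood at 2.44, 6.90 and 1.12 CPM in colon WT and 0.991, 0.392 and 1.28 CPM in colon KO, and WT replicate 2, not 1, held the highest value. Without that library the change was -1.01. Prf1, perforin, had 0 counts in colon KO replicate 2, which allows up to 0.049 CPM at 3 counts, and its genotype groups overlapped in both tissues.

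The NK receptors showed no common direction in the colon of KO mice. Their median log2 fold change was -0.02 there and 0.21 in LPMC, the smallest LPMC median of the 8 subsets. Klrd1 (CD94), the partner chain of the NKG2 receptors, was the highest per kilobase, at 0.459, 0.952 and 0.802 CPM in colon WT, 0.915, 0.163 and 1.04 CPM in colon KO, 4.10, 3.16 and 3.73 CPM in LPMC WT and 5.03, 1.60 and 5.03 CPM in LPMC KO. In each tissue KO replicate 2 was the lowest library and the other KO libraries lay within or above the WT range. Klrb1c (NK1.1) stood at 0.205, 0.186 and 0.258 CPM in colon WT, 0.280, 0.0653 and 0.402 CPM in colon KO, 4.72, 3.15 and 1.72 CPM in LPMC WT and 8.50, 2.17 and 6.80 CPM in LPMC KO. It had the largest tissue difference of the subset, 4.18 (SE 0.49), with log2 fold changes of 0.86 (SE 0.58) in LPMC, 0.21 (SE 0.65) in colon and 0.63 (SE 0.89) for the interaction. The colon value turned to -0.30 without colon KO replicate 3, and the LPMC value was 0.51 without LPMC KO replicate 1. Klrk1 (NKG2D) and Ncr1 (NKp46) overlapped between genotypes in both tissues. Whether the NK receptors and the receptor chains differ in their genotype response was not tested.

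The genes of residence and cytokine response had median log2 fold changes of -0.09 in colon and 0.27 in LPMC. Itgae, integrin alpha E (CD103), which binds E-cadherin on epithelium, stood at 1.93, 1.58 and 2.56 CPM in colon WT, 2.78, 1.52 and 3.65 CPM in colon KO, 14.9, 10.4 and 17.97 CPM in LPMC WT and 10.5, 4.58 and 7.999 CPM in LPMC KO. It was the lowest member in LPMC by log2 fold change, -0.90 (SE 0.35), with 1 KO library just above the lowest WT library, and its colon log2 fold change was 0.37 (SE 0.41), from 0.08 without colon KO replicate 3 to 0.65 without colon KO replicate 2. Leaving out the 4 libraries that stand apart took the LPMC value to -0.44. Itgae is also known from dendritic cells, and their part in its values was not tested. Cxcr6, a chemokine receptor of resident lymphocytes, stood at 0.917, 0.557 and 0.516 CPM in colon WT, 0.840, 0.163 and 1.12 CPM in colon KO, 10.2, 8.34 and 9.04 CPM in LPMC WT and 14.7, 11.8 and 20.1 CPM in LPMC KO. Its LPMC KO libraries all lay above the WT ones, at 0.76 (SE 0.23), and its LPMC over colon log2 fold change was 4.10 (SE 0.41).

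Il2rb, the beta chain shared by the IL-2 and IL-15 receptors, had a tissue log2 fold change of 4.52 (SE 0.45) and overlapping genotype groups. Ccl5, a chemokine that T cells, NK cells and macrophages make, stood at 19.3, 31.1 and 2.01 CPM in colon WT, 7.24, 1.09 and 8.27 CPM in colon KO, 67.7, 45.8 and 45.3 CPM in LPMC WT and 96.7, 15.4 and 47.6 CPM in LPMC KO. Colon WT replicate 3 was as low as the KO libraries, and the colon log2 fold change was -1.68 (SE 1.01), or -0.97 without colon WT replicate 2. LPMC KO replicate 2 lay below colon WT replicate 2, so the tissues overlapped, and the tissue log2 fold change was 2.43 (SE 0.68).

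Leukocyte RNA, read as Ptprc, also differed between libraries, in colon only partly in step with the receptor chains. Colon WT replicate 1 was the highest colon library and colon KO replicate 2 the lowest in both. Ptprc was 8.68 CPM in colon WT replicate 3 and 26.5 CPM in colon KO replicate 1, where the receptor chains summed to 8.96 and 7.63 CPM. The 8 receptor chains summed to 24.7, 11.99 and 8.96 CPM in colon WT and 7.63, 4.14 and 9.58 CPM in colon KO and to 90.2, 70.7 and 69.96 CPM in LPMC WT and 158, 46.1 and 125 CPM in LPMC KO. The ratio of the KO to the WT mean was 0.468 in colon and 1.42 in LPMC. Divided by Ptprc of the same library, the sum was 0.199, 0.584 and 1.03 in colon WT and 0.288, 1.01 and 0.395 in colon KO and 0.497, 0.601 and 0.548 in LPMC WT and 0.569, 0.603 and 0.420 in LPMC KO. In colon the KO libraries then lay within the range of the WT ones, with means of 0.605 ± 0.417 (SD, n = 3) in WT and 0.564 ± 0.388 (SD, n = 3) in KO. In LPMC the means were 0.549 ± 0.0519 in WT and 0.531 ± 0.0974 in KO (SD, n = 3). Over the KO to WT means, the ratio per Ptprc was 0.932 in colon and 0.967 in LPMC. These sums carry no test. Without colon WT replicate 1 the colon ratio was 0.680 for the sum and 0.698 per Ptprc, and per Ptprc it ran from 0.565 without colon KO replicate 2 to 1.44 without colon WT replicate 3.

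The cytotoxic effectors gave a KO to WT ratio of 0.449 in colon and 1.43 in LPMC, and 0.683 and 0.937 per Ptprc. The NK receptors gave 0.913 and 1.27, and 0.869 and 0.886 per Ptprc. With the sum of Ptprc, Coro1a, Laptm5 and Cd53 as the denominator, the colon ratios were 1.18 for receptor chains, 0.882 for cytotoxic effectors and 1.24 for NK receptors. Without colon WT replicate 1 they were 0.927, 0.633 and 0.868 with that denominator. Leaving out each colon library in turn took the ratio of the receptor chains from 0.848 to 1.63 and that of the NK receptors from 0.868 to 1.77, so neither kept to 1 side of 1.

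**Figure D4:**
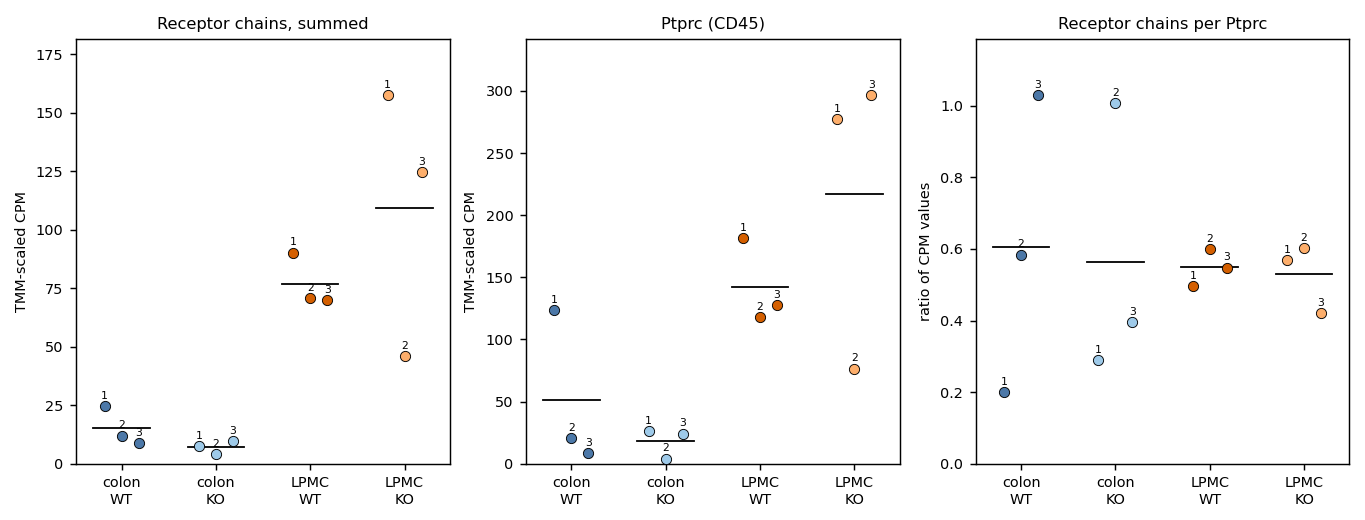
Summed receptor chains, Ptprc and the ratio of the first to the second in each library, as TMM-scaled CPM and a ratio; each point is a library with its replicate number and each line a group mean. The genotype means of the sum differ by a ratio of 0.468 in colon and 1.42 in LPMC, and those of the ratio to Ptprc by 0.932 and 0.967.

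Markers of other cells varied between the same libraries. In colon, monocyte and macrophage markers (9 genes) summed to 324 to 572.5 CPM in WT and 162 to 502 CPM in KO, lowest in KO replicate 2. Neutrophil markers (7 genes) summed to 541 to 774.5 CPM in WT and 259.8 to 452 CPM in KO, with no overlap. Epithelial markers summed to 20460 to 22130 CPM in WT and 14230 to 28000 CPM in KO, highest in KO replicate 2. In LPMC, B cell markers summed to 72.2 to 195.5 CPM in WT and 51.2 to 332 CPM in KO, and were lowest in KO replicate 2 as most members were. Neutrophil markers summed to 113.5, 59.5 and 118.6 CPM in LPMC WT and to 573, 73.1 and 388 CPM in LPMC KO, in replicate order, so KO replicates 1 and 3 were the high ones. Mast cell markers (8 genes) summed to 98.9 to 125.2 CPM in LPMC WT and 128.4 to 183.8 CPM in LPMC KO, with no overlap. Monocyte and macrophage markers summed to 301 to 496 CPM in LPMC WT and 266 to 793 CPM in LPMC KO. No marker of the monocyte, neutrophil or epithelial lists was at 0 in any library, and 1 of the 8 B cell markers was at 0 in colon WT replicate 2. Their part in the members' differences was not tested.

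Ratios between members, per kilobase, do not depend on how the libraries were scaled. Cd8a per Cd4 was 0.235, 0.341 and 0.162 in colon WT and 0.0868, 0.297 and 0.279 in colon KO and 0.880, 0.635 and 1.49 in LPMC WT and 0.678, 0.591 and 0.374 in LPMC KO. Every LPMC library had a higher ratio than every colon library, and the genotypes overlapped in both tissues. Some myeloid cells also make Cd4, so this is not a ratio of T cells alone. Monocyte and macrophage markers summed to 162 to 572.5 CPM in colon and 266 to 793 CPM in LPMC. The part of myeloid RNA in the ratio was not tested. Cd8b1 per Cd8a was 1.01, 1.47 and 0.818 in colon WT and 0.892, 0.892 and 0.556 in colon KO and 0.712, 0.943 and 0.207 in LPMC WT and 1.08, 0.335 and 1.21 in LPMC KO. This ratio, which is lower where more CD8 alpha is made without the beta chain, overlapped between genotypes and between tissues.

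Trdc per Trac, a ratio chosen after its values were seen, was 0.0616, 0.0363 and 0.0488 in colon WT and 0.217, 0.181 and 0.168 in colon KO and 0.0601, 0.0374 and 0.0759 in LPMC WT and 0.0381, 0.184 and 0.105 in LPMC KO. The colon means were 0.0489 ± 0.0127 in WT and 0.189 ± 0.0252 in KO (SD, n = 3), and every colon KO library was above every colon WT library. In LPMC the KO libraries ranged from below most WT libraries to above all of them. Since it was picked for this pattern it carries no test. The gamma-chain constant genes, which gamma delta T cells also need, had colon log2 fold changes below 0. Tcrg-C1 stood at 0.507, 0.790 and 0.344 CPM in colon WT and 0.420, 0.131 and 0.462 CPM in colon KO. Tcrg-C2 stood at 0.507, 0.418 and 0.788 CPM in colon WT and 0.452, 0.245 and 0.502 CPM in colon KO. The genotypes overlapped for both, with colon log2 fold changes of -0.68 (SE 0.58) and -0.52 (SE 0.46), and Tcrg-C4 had -0.43 (SE 0.62). Of the other gamma delta T cell genes read here, Cd163l1 and Sox13 were above 0 in colon, at 0.87 (SE 0.45) and 0.28 (SE 0.23). Il23r was below 0, at -1.08 (SE 0.76). Sox13 stood far above the gamma-chain genes, at 41.05, 34.1 and 48.8 CPM in colon WT and 47.5, 63.5 and 40.7 CPM in colon KO. Its highest colon value was in KO replicate 2, the lowest colon library for most members.

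**Figure D5:**
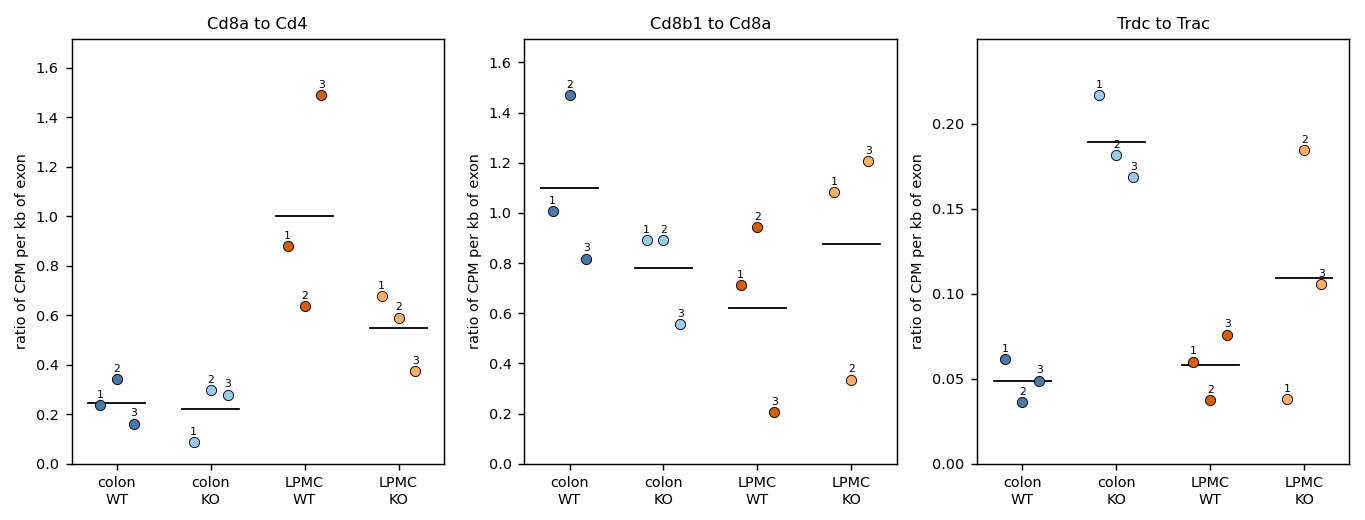
Ratios of CPM per kb between members in each library (Cd8a to Cd4, Cd8b1 to Cd8a, Trdc to Trac), with replicate numbers and group means. Cd8a to Cd4 is higher in all LPMC libraries than in any colon library, and Trdc to Trac is 0.168 to 0.217 in colon KO against 0.0363 to 0.0616 in colon WT.

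Other genes of the same pathways were read from lists that hold none of the members. Of 14 further T cell receptor signalling genes, 14 were called higher in LPMC than in colon, with a median log2 fold change of 3.36, where 25.4% of all genes were called higher. Txk, a tyrosine kinase of T cells, had 3.36 (SE 0.27) and Cd96, a receptor of T and NK cells, 4.27 (SE 0.40). Between genotypes 0 of the 14 were called in either tissue, 14 were below 0 in colon with a median of -1.10, and 13 were above 0 in LPMC with a median of 0.46. Over all genes tested, 49.5% were below 0 in colon and 49.2% above 0 in LPMC. Txk had the lowest colon p of the list, with 1.65, 1.60 and 0.974 CPM in colon WT and 0.689, 0.555 and 0.730 CPM in colon KO. Its log2 fold change was -1.11 (SE 0.38). It was the 1 gene of the 14 whose colon KO libraries all lay below the WT ones, as in 6.53% of all genes tested, a similar share.

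Of 6 matched gamma delta T cell genes, 6 were called higher in LPMC, against 25.4% of all genes, with a median of 2.75, and 0 were called between genotypes, where the medians were -0.47 in colon and 0.24 in LPMC. Cd163l1, a scavenger receptor of gamma delta T cells that make IL-17, stood at 0.543, 0.906 and 0.559 CPM in colon WT, 1.32, 0.718 and 1.63 CPM in colon KO, 8.09, 5.68 and 4.45 CPM in LPMC WT and 10.1, 17.7 and 23.1 CPM in LPMC KO. Its colon groups overlapped. Its LPMC groups did not overlap, as those of Trdc did not, with a log2 fold change of 1.48 (SE 0.37). Cd163l1 was the 1 gene of these 6 whose LPMC KO libraries all lay above the WT ones, as in 3.66% of all genes tested. The gamma-chain genes Tcrg-C1, Tcrg-C2 and Tcrg-C4 stood at 0.40 (SE 0.44), -0.10 (SE 0.60) and -0.35 (SE 0.69) in LPMC. Sox13 stood at 0.09 (SE 0.11) there and Il23r at 0.70 (SE 0.45). Of 23 further cytotoxic and NK genes, 19 were called higher in LPMC, against 25.4% of all genes, with a median of 2.52. In colon 19 of the 23 had enough counts to be tested, 0 were called between genotypes and 15 were below 0, against 49.5% of all genes, with a median of -0.56. In LPMC 0 were called and 19 of 23 were above 0, against 49.2% of all genes, with a median of 0.27.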

How the data were processed

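RNA-seq libraries were made from poly(A) RNA with a stranded kit, per the labels' protocols. The aligner STAR and the build GRCm38 (mm10) are named in the submitters' processing notes. The authors deposited raw counts per gene and library. The counting tool, annotation and strand setting were not given in the sources used here. Between 66.6% and 76.6% of counts from 1 to 20 were even, so mates of a pair may have been counted separately, and counts are not independent fragments. Of 54109 identifiers, 54042 matched GENCODE M21, which gave symbols, coordinates and exon lengths. Precision rests on 3 libraries a group. Replicate pairs all differed by more than sampling noise.

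Counts were tested with edgeR 4.0.16 (R 4.3.3) in quasi-likelihood fits on the whole table, with TMM scaling, filterByExpr at a minimum count of 10, robust dispersion and Benjamini-Hochberg adjustment. All 37 members passed the filter in every fit. The genotype fits used the 6 libraries of a tissue, and the tissue and interaction fits all 12. CPM were scaled by TMM over 12 libraries. The limit given for a count of 0 (3 counts) covers counting error only. DESeq2 1.42.0, its size factors, no filter, a replicate block, all 12 libraries and leaving out libraries were the alternatives. The fitting code was tested on simulated data, with 100 genes changed 4-fold and 100 changed 2-fold. With edgeR, 44 and 2 of them were called in the colon genotype comparison, and 57 and 18 in the LPMC one. In the interaction 14 and 1 were called, and 65 and 35 for LPMC against colon. A missing genotype call therefore does not show that a 2-fold change is absent. Calls among unchanged genes numbered 4 with edgeR and 98 with DESeq2 in the colon genotype comparison. In the LPMC one they numbered 10 and 71. The members, the gene lists and the tests were chosen with earlier results of these data known. Values in every library are given for the member of highest mean CPM per kb and of lowest p in each comparison in each subset, and for members whose genotype groups do not overlap. A few others were added after their values were seen. The list of gamma delta T cell genes lacks 1 gene, Scart2, whose symbol had no match.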

Additional observations from a re-analysis of the deposited data

How the results depend on the processing

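No member was called between genotypes, in colon, in LPMC or in the interaction, under any alternative tried, and 37 were called higher in LPMC than in colon in every alternative except the fit without the 4 libraries that stand apart, where 36 were (Ccl5 had an adjusted p of 0.0598 with edgeR's quasi-likelihood test). Scaling by DESeq2's size factors shifted the median of all genes by at most 0.019 in size on the log2 scale.

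In colon, 9 members were below 0 at an unadjusted p under 0.05. That count was 1 without the 4 libraries and from 1 to 13 without each library in turn. The members' median of -0.79 became -0.16 without the 4 libraries and ran from -1.13 to -0.40 without each library. The 32 members below 0 became 21 without the 4. In LPMC, 3 members were above 0 at an unadjusted p under 0.05. That count was 0 with the contrast fitted on all 12 libraries, 29 without the 4 libraries and from 1 to 26 without each library, and the median ran from 0.12 to 0.85. In the interaction the count of 8 ran from 1 to 16, and the median from 0.78 to 1.63. None of these refit counts has the share of all genes beside it, so they do not set the members against other genes. The colon log2 fold change of Klrb1c, 0.21, ran from -0.30 to 0.63. Over the whole table, DESeq2 called 18 genes in colon against 1 with edgeR, 28 against 2 in LPMC and 3 against 0 in the interaction. DESeq2 also made more false calls than edgeR in the simulated data. Leaving out each library from the ratios of sums was added after seeing the data: per summed pan-leukocyte genes, without colon WT replicate 2, the colon ratio was 1.42 for cytotoxic effectors and 1.77 for NK receptors. The causes were not tested.

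The labels do not say whether same-numbered KO and WT libraries of a tissue are paired, and correlations showed no clear pairing. With so few libraries they cannot exclude it. Correlations of same-numbered libraries' deviations ran from -0.133 to 0.042 between colon WT and KO and from -0.23 to 0.24 between LPMC WT and KO, and 1 of 6 libraries correlated best with its own number in each. Between colon and LPMC they ran from 0.081 to 0.163 in WT, where 6 of 6 libraries correlated best with their own number, and from 0.064 to 0.303 in KO, where 3 of 6 did. Whether colon and LPMC libraries of a number came from the same animal was not stated, and the tissue and interaction fits do not pair them. With the replicate block, 4 colon members were below 0 at an unadjusted p under 0.05, Klrb1c was at -0.01 and 0 genes were called over the whole table in either tissue.

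Colon values of members rest on 0 to 1759 counts and LPMC values on 40 to 24292.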
